A study of Mus musculus with 6 samples.

Results

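The genes described here set whether a blood stem cell rests or enters the division cycle: 6 inhibitors of cyclin-dependent kinases (Cdkn1a, Cdkn1b, Cdkn1c, Cdkn2a, Cdkn2b and Cdkn2c), the 3 D-type cyclins (Ccnd1, Ccnd2 and Ccnd3) and the kinase gene Cdk6. The regions described are those that overlapped the body of 1 of these 10 genes or the 25 kb on either side, after peaks of the 6 deposited lists that shared at least 1 bp had been merged. There were 311 such regions among 882758 merged regions in all, and the 10 genes were among 21631 protein-coding genes examined.

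D-type cyclins bind Cdk6 or its relative Cdk4, and the complex phosphorylates the retinoblastoma protein, which releases E2F factors and lets a cell pass from G1 into S phase. The INK4 proteins, encoded by Cdkn2a, Cdkn2b and Cdkn2c, bind Cdk4 and Cdk6 and keep cyclin D away. The CIP/KIP proteins p21, p27 and p57, encoded by Cdkn1a, Cdkn1b and Cdkn1c, act on a wider set of cyclin-kinase complexes. Long-term haematopoietic stem cells are mostly quiescent, p57 is known for holding them in that state, and p16 from Cdkn2a is a common marker of senescence.

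ATAC-seq, an assay whose transposase inserts adapters where DNA is accessible, was run on long-term haematopoietic stem cells of the bone marrow of aged and young C57BL/6 mice (3 lists per age). All 6 samples were sorted as lineage-negative, Kit-positive, Sca1-positive cells without Flk2 and Cd34, and all were kept overnight in HBSS with FBS at 3% oxygen, so no group without culture was compared. The labels give no age in weeks and no sex, and they do not tie a list to an animal, so the spread between lists may be technical. The number of reads behind each list is unknown.

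The lists held between 110596 and 263956 distinct peaks on the chromosomes used. Peaks reaching a -log10 q of 5 numbered 224 in young replicate 2 and between 6005 and 31725 elsewhere. When the remaining lists all had a region, young replicate 2 had it in 62.3% of cases, aged replicate 3 in 75.6% and any other list in 97.4% or more. Results that rest on these 2 lists are given with and without them. Of the 9 stem-cell marker genes, Kit, Mecom, Hlf and Fgd5 had their start region called in all 6 lists and Procr in 5, while Slamf1 had none. Among markers of mature cells, 0 of 3 B-cell, 0 of 4 T-cell, 0 of 5 myeloid and 0 of 4 erythroid genes were called in all 6, and Elane, Hbb-bt and Hba-a1 were called in no list.

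Promoters of 4 genes show the range of starts behind the calls below. The sequences are the 250 bases before the transcript start, from RefSeq (GRCm38.p6, known as mm10), written 5′ to 3′ on the strand of the gene. Starts were listed for 7 of the 10 genes, and Ccnd1, Ccnd2 and Cdkn1c had no entry. Capitals mark exact matches on either strand to a GC box (GGGCGG, in 43.1% of 21045 promoters of this length), a CCAAT box (CCAAT, 35.6%), an E2F motif (TTTCCCGC or TTTGGCGC, 1.69%), a cyclic AMP response element (TGACGTCA, 1.94%) or the paired core of a p53 site (CATG, any 6 bases, CATG; 0.428%). Cdkn1a has an upstream start (chr17:29090729-29090978, plus strand) and a downstream start (chr17:29093519-29093768), shown because calls differed between them. Cdkn1b (chr6:134920151-134920400, plus strand) is shown as a start called in every list. Cdkn2a has an upstream start for Arf (chr4:89294620-89294869, minus strand) and an internal start for p16 (chr4:89282193-89282442), and Cdkn2b (chr4:89311033-89311282, minus strand) is its neighbour; these 3 are shown as the starts of the INK4 locus that senescent cells use.
Cdkn1a upstream start: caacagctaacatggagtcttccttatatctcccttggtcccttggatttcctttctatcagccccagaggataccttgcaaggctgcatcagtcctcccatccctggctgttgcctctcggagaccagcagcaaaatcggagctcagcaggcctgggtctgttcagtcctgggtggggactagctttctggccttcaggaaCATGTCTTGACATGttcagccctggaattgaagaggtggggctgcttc
Cdkn1a downstream start: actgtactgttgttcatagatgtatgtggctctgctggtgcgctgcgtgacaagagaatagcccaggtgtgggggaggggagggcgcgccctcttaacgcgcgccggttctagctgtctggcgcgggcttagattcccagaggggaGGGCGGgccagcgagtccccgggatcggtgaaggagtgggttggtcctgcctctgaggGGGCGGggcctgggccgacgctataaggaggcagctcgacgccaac
Cdkn1b start: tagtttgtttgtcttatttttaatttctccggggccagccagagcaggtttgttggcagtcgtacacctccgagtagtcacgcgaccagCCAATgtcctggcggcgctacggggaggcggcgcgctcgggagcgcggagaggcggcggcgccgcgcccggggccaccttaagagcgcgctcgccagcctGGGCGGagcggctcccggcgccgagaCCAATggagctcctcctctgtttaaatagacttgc
Cdkn2a Arf start: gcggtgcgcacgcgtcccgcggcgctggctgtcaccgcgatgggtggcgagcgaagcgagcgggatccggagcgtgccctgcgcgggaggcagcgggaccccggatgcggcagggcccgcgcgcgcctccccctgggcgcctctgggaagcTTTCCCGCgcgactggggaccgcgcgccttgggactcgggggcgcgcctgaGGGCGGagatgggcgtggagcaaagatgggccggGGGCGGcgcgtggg
Cdkn2a p16 start: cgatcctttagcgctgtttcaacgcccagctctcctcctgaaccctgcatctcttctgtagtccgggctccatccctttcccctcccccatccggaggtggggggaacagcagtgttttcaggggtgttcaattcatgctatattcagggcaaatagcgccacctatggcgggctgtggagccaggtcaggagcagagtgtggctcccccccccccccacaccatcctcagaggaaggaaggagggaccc
Cdkn2b start: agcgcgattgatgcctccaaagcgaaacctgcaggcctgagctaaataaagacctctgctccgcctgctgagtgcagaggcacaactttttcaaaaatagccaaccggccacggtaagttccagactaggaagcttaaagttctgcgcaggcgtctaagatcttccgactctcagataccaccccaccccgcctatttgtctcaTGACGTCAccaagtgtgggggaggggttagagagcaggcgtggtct

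The 2 starts of Cdkn1a differ in base composition as well as in motifs. The upstream one has 2 CpG dinucleotides in 250 bases, a ratio of observed to expected CpG of 0.110, and the p53 core. The downstream one has 19 CpG dinucleotides (ratio 0.771) and 2 GC boxes. The Cdkn1b promoter has a ratio of 1.08 with 1 GC box and 2 CCAAT boxes. The Arf promoter has 40 CpG dinucleotides (ratio 1.08), an E2F match and 2 GC boxes, against 7 CpG dinucleotides (ratio 0.316) and none of these motifs at the p16 start. Cdkn2b has a ratio of 0.670 and the only cyclic AMP response element among the 11 listed starts of the 7 genes. Over all genes, 55.8% of 9502 starts with a ratio of at least 0.6 and 11.7% of 11543 other starts lay within 1 kb of a region called in all 6 lists. Among the starts of the 7 genes, 2 of 7 with a ratio of at least 0.6 did so (Cdkn1b and the downstream start of Ccnd3), and 0 of 4 others.

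A start region was taken as the strongest merged region within 1 kb of a listed start, or of either gene end for the 3 genes without one. It was called in all 6 lists for 3 of the 10 genes: Cdkn1b, Ccnd2 and Ccnd3. Over all genes the share was 31.4%, so the count for these genes was near the background. Without young replicate 2 it was 5 of 10, with Cdkn1c and Cdkn2c added, where 42.4% of all genes were called in those 5 lists. Without aged replicate 3 as well it was 7 of 10, with Cdkn2a and Cdkn2b added, against 51.9% of all genes. The region counted for Cdkn2a was centred at -889 bp, outside the gene, and was also within 1 kb of a start of Gm12610. With a -log10 q of at least 1.3, or the strongest 100000 peaks of each list, it was Cdkn1b alone. By list, the start regions of 9, 9 and 5 of the 10 genes were called in aged replicates 1 to 3, and of 9, 3 and 9 in young replicates 1 to 3. The low counts were those of aged replicate 3 and young replicate 2, 1 of each age.

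**Figure D1:**
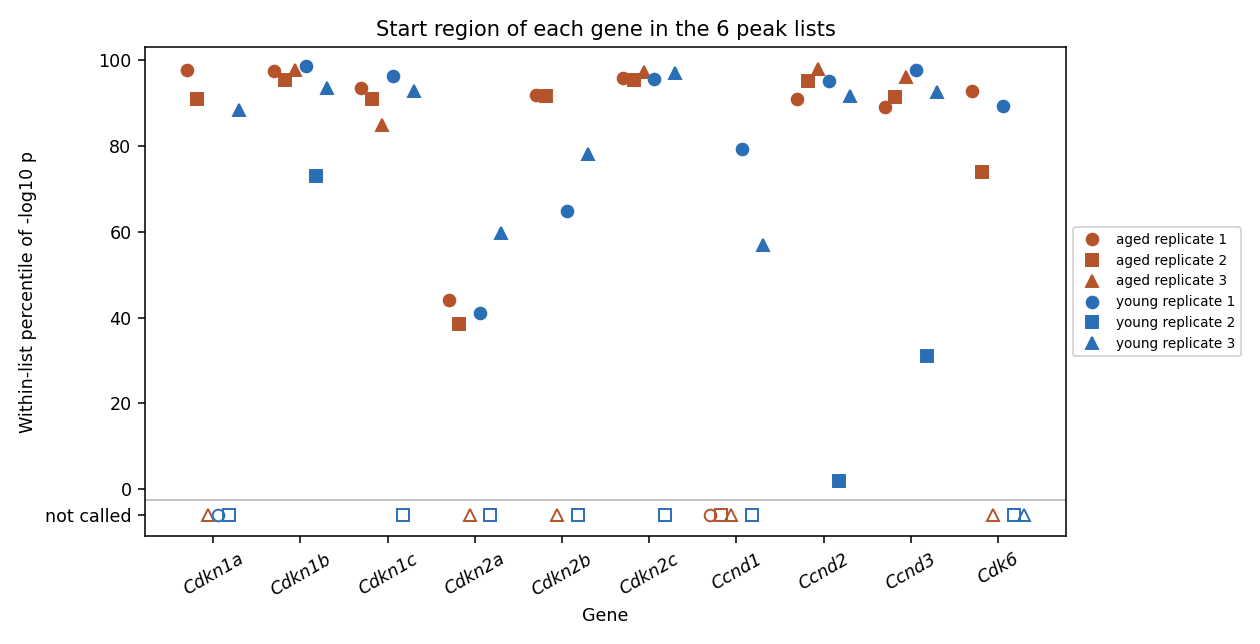
Within-list percentile (0 to 100) of the -log10 p of the start region of each gene, in 3 aged (brown) and 3 young (blue) lists; open symbols below the line are lists without a call. Cdkn1b, Ccnd2 and Ccnd3 have a filled symbol for every list, and the missing calls of Cdkn1c and Cdkn2c are in young replicate 2.

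Percentiles below are ranks of the deposited -log10 p within a list, and because the lists differ in length they show how strong a region was in its own list, not a change between lists. Young replicate 2 had 200 distinct p-values among 254869 peaks, so many of its peaks tie and its percentiles are coarse. Cdkn1b (chr6:134920401-134925525) encodes p27, which restrains cyclin E with Cdk2. Its start region (chr6:134919983-134920789) was centred at -15 bp from the transcript start. It ranked at percentiles of 97.6, 95.3 and 97.8 in aged replicates 1 to 3 and 98.7, 73.1 and 93.6 in young replicates 1 to 3. All lists but young replicate 2 thus placed it high, and the ages overlapped. In young replicate 2 its rank of 73.1 was tied with that of peaks called in that list alone. The locus held 2 more regions called in all 6 lists. One, at chr6:134928222-134929291, lay 8355 bp after the start, beyond the end of the gene, at the start of Lockd. Lockd is a non-coding RNA gene whose promoter element is known to act on Cdkn1b in erythroid cells. Its percentiles were 98.2, 98.1 and 96.2 in the aged group and 96.1, 73.1 and 96.5 in the young group. The other, at chr6:134897622-134898811, was centred at -22185 bp and covered the starts of Gpr19, an orphan receptor gene, and 2810454H06Rik.

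Cdkn1a (chr17:29090979-29100722) encodes p21, the inhibitor that p53 induces after DNA damage. No list had a peak within 1 kb of its upstream start, the one with the p53 core printed above. At the downstream start, the region chr17:29093577-29094066 was called in aged replicates 1 and 2 (percentiles 97.6 and 91.0) and young replicate 3 (88.4). Aged replicate 3 and young replicates 1 and 2 instead called a region just beyond it (chr17:29094357-29095059), at percentiles of 62.0, 5.83 and 98.1. Counting either region, all 6 lists had a peak within 1 kb of that start, and Cdkn1a then made 4 of 10 genes with a call in every list, against 35.0% of all genes.

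Higher than the start call in 5 lists, and tied with it in young replicate 2, was a region inside the Cdkn1a gene, 1730 bp after the downstream start (chr17:29095122-29095876). Its percentiles were 98.6, 96.5 and 95.5 in the aged group and 99.4, 98.1 and 95.3 in the young group, so each list ranked it among its strongest peaks and the ages overlapped. A further region called in all 6 lists (chr17:29078914-29079320) was centred at -11862 bp from the upstream start, within Trp53cor1, the gene of lincRNA-p21. It ranked at 96.0, 92.6 and 94.8 in the aged lists and at 88.8 and 90.4 in young replicates 2 and 3, and lowest in young replicate 1.

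Cdkn1c (chr7:143458339-143461059) encodes p57 and is an imprinted gene, expressed mainly from the maternal copy; the peaks carry no information on the allele. Its start region (chr7:143460572-143461540) was centred at -3 bp from the gene end with the higher coordinate. It was called at percentiles of 93.4, 91.1 and 84.9 in aged replicates 1 to 3 and 96.3 and 92.9 in young replicates 1 and 3, and it was not called in young replicate 2. The 5 lists with a call all ranked it high. Away from that end no region of the locus was called in more than 3 lists. The strongest (chr7:143473508-143473857), at the start of the transporter gene Slc22a18, ranked at 93.6 and 83.8 in aged replicates 1 and 2 and 74.3 in young replicate 3.

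The INK4 genes were less uniform. Cdkn2c (chr4:109660876-109666756), which encodes p18, had a strong start region (chr4:109666454-109667242, centred at -92 bp) at percentiles of 95.9, 95.4 and 97.3 in the aged group and 95.7 and 97.0 in young replicates 1 and 3. It was missing in young replicate 2. The region called in all 6 lists at this locus was at the start of Faf1, at -9998 bp from that of Cdkn2c (chr4:109676106-109677403), and ranked between 97.5 and 98.9. Faf1 encodes a protein that binds the death receptor Fas.

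Cdkn2a (chr4:89274473-89294619) and Cdkn2b (chr4:89306289-89311032) lie side by side on chromosome 4, and all 16 regions of the Cdkn2b window were also in that of Cdkn2a. Neither window held a region called in all 6 lists. The p16 start had a peak in 1 list, aged replicate 2, at a percentile of 79.3. No region covered the Arf start itself. The regions at -889 and -421 bp given next lay outside Cdkn2a and were also within 1 kb of a start of the neighbour Gm12610. The region chr4:89295315-89295702, centred at -889 bp, had percentiles of 44.1 and 38.4 in aged replicates 1 and 2 and 41.1 and 59.6 in young replicates 1 and 3, in the lower or middle part of each list. A nearer one at -421 bp (chr4:89294846-89295235) was called in aged replicates 1 and 2 and young replicate 2, at 71.6, 53.1 and 42.7. The Cdkn2b start region (chr4:89310506-89311281) was called in the same 4 lists as the region at -889 bp and ranked higher, at 91.9 and 91.7 in the aged group and 65.0 and 78.1 in the young group. The region at -889 bp and that of Cdkn2b were missing in aged replicate 3 and young replicate 2, which call the fewest of the shared regions, and a missing call there does not show closed chromatin. By contrast Cdkn2d, which encodes the remaining INK4 protein p19, had its start region (chr9:21290907-21291786) called in all 6 lists at percentiles between 99.2 and 99.8.

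Among the D-type cyclins Ccnd3 (chr17:47505051-47599689) had the most regions called in all lists. Its window of 145 kb held 61 regions, of which 8 were called in all 6 lists. Of 21631 genes 4 had at least 8 such regions within their window, namely Gse1 with 13 and Ccnd3, Nfix and Ppard with 8 each; the other 3 are named for this count alone, after it was seen. The count depends on the length of the window, and the Ccnd3 window includes the starts of neighbours. The downstream start of Ccnd3 (region chr17:47593114-47593820) had percentiles of 89.1, 91.3 and 96.0 in the aged group and 97.8, 31.0 and 92.5 in the young group. Young replicate 2 was the lowest and the ages overlapped. The upstream start (region chr17:47504842-47505243) was called in 5 lists, without young replicate 2, at percentiles between 69.9 and 95.6.

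Several regions inside Ccnd3 ranked above both starts in most lists. The strongest, 3009 bp after the upstream start (chr17:47507775-47508346), had percentiles of 98.7, 98.9 and 98.6 in the aged group and 99.6, 99.3 and 98.5 in the young group. The next, 16727 bp after that start (chr17:47521406-47522150), had 97.6, 98.1 and 98.2 in the aged group and 99.3, 99.6 and 98.4 in the young group. Another, 2256 bp after the downstream start (chr17:47595389-47596058), lay between 93.6 and 99.9. All 3 were among the strongest peaks of each list. Not every shared region of the window was strong. One inside the gene (chr17:47511078-47511536) ranked between 37.8 and 94.4, and one within Taf8 (chr17:47484323-47485129) between 36.8 and 94.8. Outside the gene, shared regions at the start of Taf8, which encodes a TFIID subunit (chr17:47501821-47502516), and at the starts of Bysl and Med20 (chr17:47610862-47611979) belong as much to those neighbours.

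Ccnd2 (chr6:127125162-127152188) had a start region called in all 6 lists (chr6:127152210-127152802), just beyond the gene end with the higher coordinate, within the non-coding gene 9330179D12Rik. Its percentiles were 90.9, 95.2 and 97.9 in the aged group and 95.1, 1.97 and 91.7 in the young group, so the call in young replicate 2 was among the weakest peaks of that list. Inside the gene and within 1 kb of that end lay a region called in 5 lists and one called in 4. The former (chr6:127150913-127151265) was missing in aged replicate 3. It ranked at 87.6 and 75.9 in aged replicates 1 and 2 and at 90.0, 99.1 and 84.9 in the young group. Young replicate 2 thus had a high-ranked peak near this end. A region 10801 bp beyond the same end (chr6:127162778-127163201) was called in 5 lists, without young replicate 2, at percentiles of 98.9, 96.0 and 75.8 in the aged group and 97.5 and 94.7 in the young group. The region at the start of Tigar, a p53-responsive gene of sugar metabolism (chr6:127109204-127109992), was also called in those 5 lists.

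Ccnd1 (chr7:144929931-144939831) had the start region called in the fewest lists among the D-type cyclins. A region at the gene end with the higher coordinate (chr7:144939698-144939903) was called in young replicates 1 and 3, at percentiles of 79.4 and 56.9, and in no other list. With 2 of 3 young and 0 of 3 aged lists it did not meet the rule for a region of 1 age. A stronger region 1673 bp beyond that end (chr7:144941198-144941811) was called in all lists but young replicate 2, at 93.2, 85.7 and 94.8 in the aged group and 89.3 and 89.6 in the young group. The region called in all 6 lists (chr7:144914674-144915543) was at the start of the neighbour LTO1, with percentiles of 98.1 and 95.3 in aged replicates 1 and 2 and 95.8, 73.1 and 94.0 in the young lists; aged replicate 3 ranked it lowest.

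Cdk6 (chr5:3341004-3531008) encodes the kinase partner of the D-type cyclins and has the longest window, 240 kb with 84 regions, of which 70 were called in 1 list alone and 0 in all 6. Its start region (chr5:3343580-3344004, centred at -101 bp) was called in aged replicates 1 and 2 and young replicate 1, at percentiles of 92.9, 73.9 and 89.4. Young replicate 3 had no call there. Another region, 627 bp after the start (chr5:3344394-3344646), was called in aged replicate 2 (percentile 78.6) and in young replicates 1 and 3 (79.4 and 81.6). Deep inside the gene, 150713 bp after the start, the region chr5:3494369-3494844 was called in 5 lists at 93.4, 88.7 and 51.4 in the aged group and 93.0 and 81.3 in the young group. A region 157939 bp after the start (chr5:3501598-3502066) was called in every list but aged replicate 1. The strongest region of the window away from the start belonged to the start of Fam133b (chr5:3543634-3544410). For these genes exons, introns and UTRs were not resolved, since the annotation used gives gene bounds and starts alone.

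**Figure D2:**
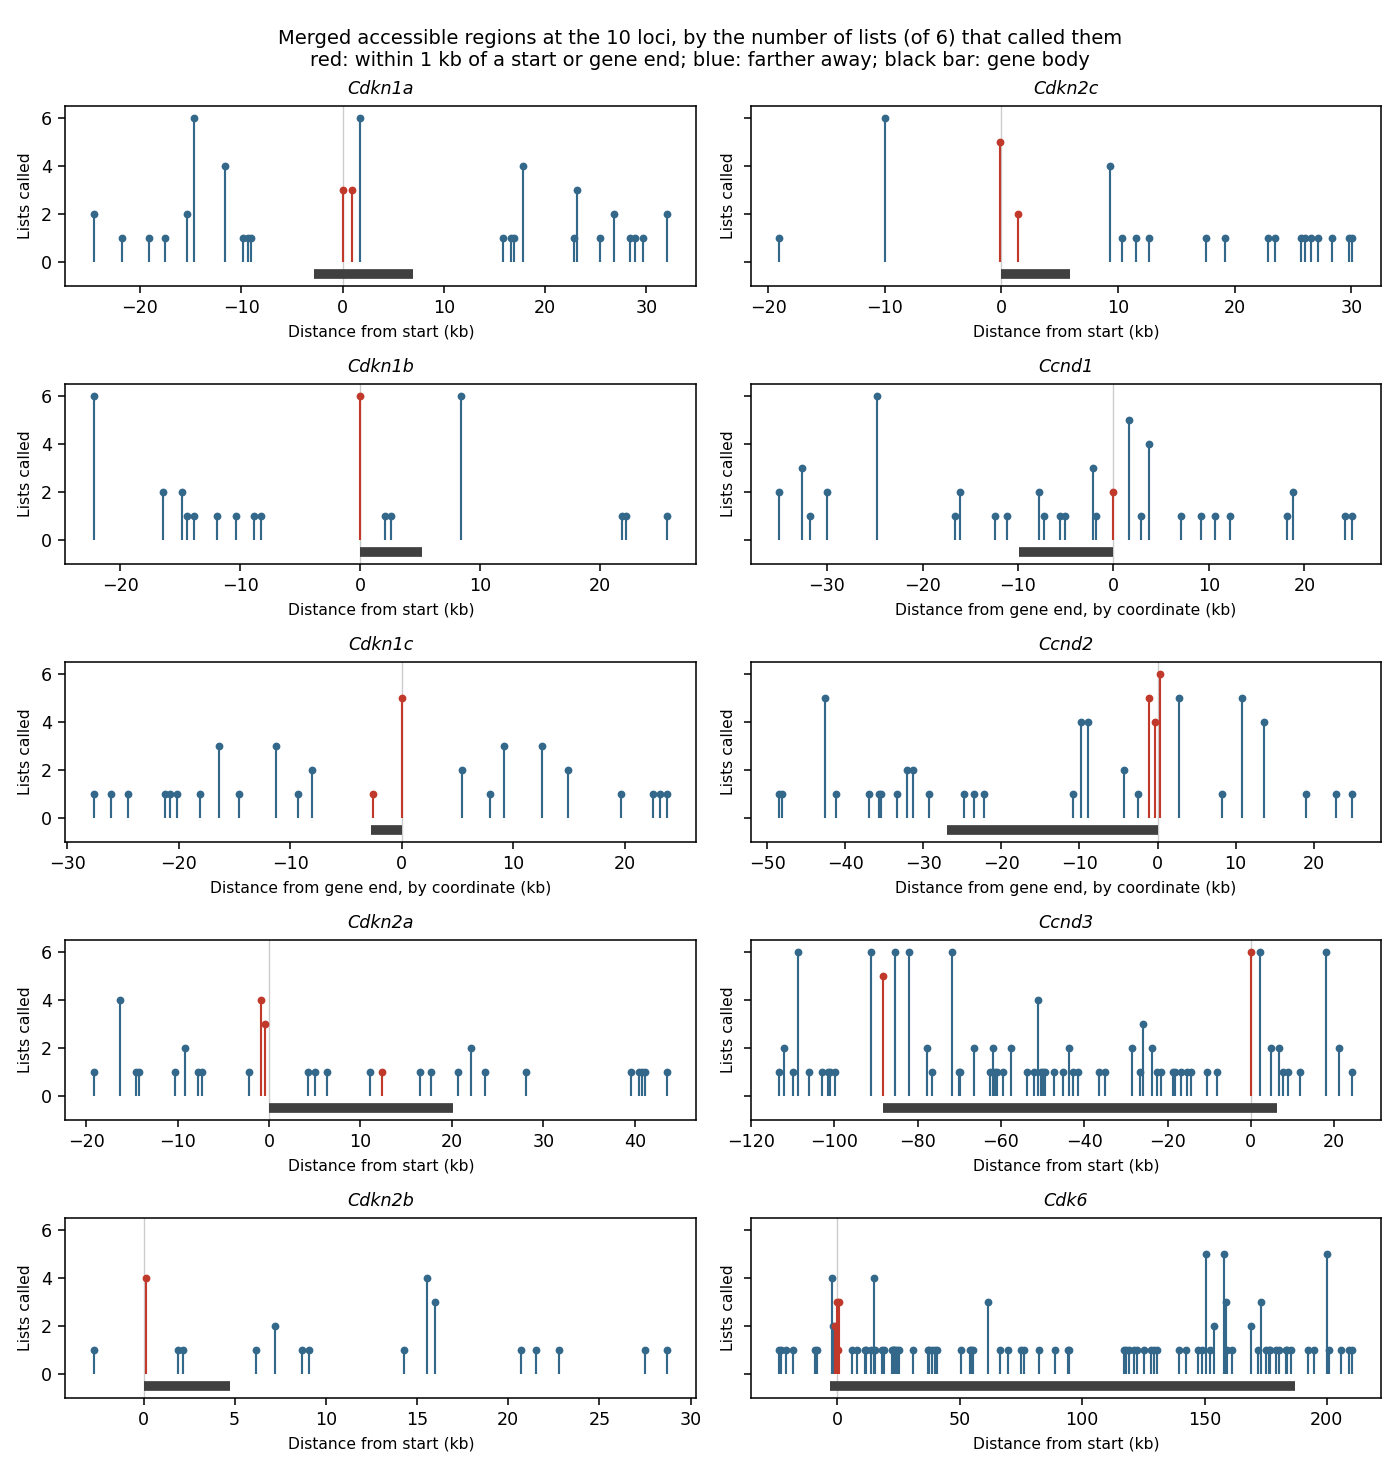
Every merged region of the 10 loci by the distance of its centre (kb) from 1 start of its gene, or from a gene end for Cdkn1c, Ccnd1 and Ccnd2, and the number of lists, of 6, that called it; red stems lie within 1 kb of a start or gene end and black bars are gene bodies. Most stems reach 1 list, while Ccnd3 has 8 that reach all 6 and Cdk6, Cdkn1c, Cdkn2a and Cdkn2b have none.

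The 311 regions were next read together, to ask how much of this chromatin the ages shared. Of these, 16 (5.14%) were called in all 6 lists, against 1.09% of all merged regions and 1.61% of the 550649 regions within 25 kb of any protein-coding gene. Ccnd3, Cdkn1b and Cdkn1a held 13 of the 16. By position, 3 were at a start of 1 of the 10 genes, 6 at the start of another gene and 7 at no listed start, 5 of the last inside Cdkn1a or Ccnd3. At the other extreme, 219 regions were called in 1 list alone. The shared regions had a median width of 750 bp and those of 1 list 181 bp.

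Calls missing from a region followed 2 lists. Of 11 regions called in 5 lists, 9 lacked young replicate 2, 1 lacked aged replicate 3 and 1, in Cdk6, lacked aged replicate 1. Of 13 regions called in 4 lists, 10 lacked both aged replicate 3 and young replicate 2. Without young replicate 2 the number of regions called in every list was 25 in place of 16 at these loci and 15369 in place of 9582 over all regions. Without both lists it was 36 at these loci and 25883 over all regions. With peaks limited to a -log10 q of at least 1.3 it was 10 of 6303, and with the strongest 100000 of each list 10 of 6485.

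Differences between ages were then sought in 3 ways. Regions present in every aged list and absent from every young one numbered 0 of 311, where 0.0502% of all regions and 0.0558% of those near coding genes met this rule. In the opposite direction there was 1 of 311, where 0.0608% of all regions and 0.0708% of those near coding genes met it; a count of 1 is too small to read against such shares. It lay within Rab44, 23185 bp after the downstream start of Cdkn1a (chr17:29116851-29117058), and was weak in each young list, with percentiles of 24.3, 42.7 and 7.78 and a -log10 p of 3.09 at most. With peaks limited to a -log10 q of at least 1.3, to the strongest 100000 of each list or to a window of 10 kb, that count was 0. Leaving out 1 list asks for fewer calls. Without aged replicates 1, 2 or 3 there were 2, 3 and 7 aged-only regions. The matching shares of all regions were 0.375%, 0.642% and 0.859%. Without young replicates 1 or 2 there were 2 and 5 young-only regions, where 0.497% and 0.788% of all regions met the rule. Without aged replicate 2 there were 2 young-only regions, where 0.155% of all regions met it. The number of regions at these loci under each setting was not recorded. Over all regions there were 6833 aged-only regions in place of 443 without aged replicate 3, and 5387 young-only regions in place of 537 without young replicate 2.

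The second way was the share of a list's peaks that fell in each locus. This divides by the length of the list but does not free the comparison from it. Ccnd3 had between 17 and 25 peaks in each list, yet its share was highest in young replicate 3, the shortest list. For Cdkn1b the shares were 0.00163%, 0.00619% and 0.00385% in the aged group and 0.00227%, 0.00314% and 0.00362% in the young group, and the aged values spanned the young ones. The aged mean was 0.00389% ± 0.00228 and the young mean 0.00301% ± 0.000681 (mean ± SD of 3 lists, exact 2-sided permutation p 0.6). For Cdkn2a they were 0.00379% ± 0.0021 and 0.00355% ± 0.00139 (exact p 0.9), and for Cdkn2b 0.00209% ± 0.0016 and 0.00304% ± 0.0017 (exact p 0.6). For Ccnd3 the shares were 0.0102%, 0.0132% and 0.0162% in the aged group and 0.00871%, 0.00667% and 0.0181% in the young group, again with overlap (exact p 0.7). For Cdk6 the aged mean was 0.00921% ± 0.00482 and the young mean 0.0111% ± 0.00319 (exact p 0.6). The ages overlapped for all 10 genes, while they did not overlap for 6.28% of the 21125 genes with any peak in their window. The mean was higher in aged lists for 6 of the 10 genes and in the young group for 4. The exact p-values of the 10 genes ran from 0.4 to 0.9 and were 1 after Benjamini-Hochberg adjustment over all 21125 genes. With 3 lists per age the smallest p this test can give is 0.1, so no gene could pass 0.05. Without aged replicate 1 the shares of Cdkn1b and Cdkn1c no longer overlapped between ages, and without young replicate 3 that of Ccnd3 did not. Aged replicate 1 was the longest aged list (244692 peaks) and young replicate 3 the shortest young list (110596 peaks). Each removal therefore also changed the balance of list lengths between ages. The condition is weaker with a list left out, and the share of all genes that meet it was not computed.

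**Figure D3:**
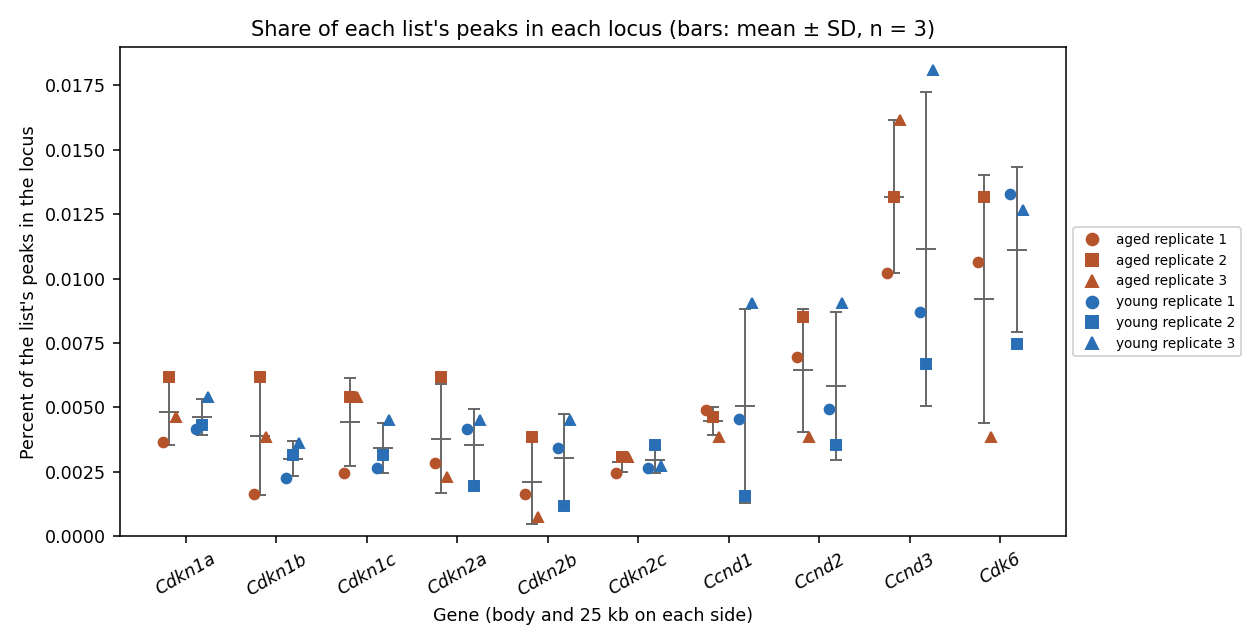
Percent of the distinct peaks of each list that overlap each locus (gene body and 25 kb on each side), for aged (brown) and young (blue) lists, with the mean and SD (n = 3). In all 10 loci the aged and young points overlap; Ccnd3 and Cdk6, the longest windows, have the highest means.

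The third way ranked each region among the 9582 regions called in all 6 lists, so that every list was ranked over the same set. Of the 16 shared regions of these loci, the ranks of 1 did not overlap between ages, against 9.68% of all shared regions. That was the region 16727 bp after the upstream start of Ccnd3, with shared percentiles of 55.0, 76.0 and 78.4 in the aged group and 83.5, 91.9 and 82.3 in the young group. The aged values averaged 69.8 ± 12.9 (SD, n = 3) and the young 85.9 ± 5.25, with the higher ranks in the young group. At the start of Cdkn1b the shared percentiles were 54.4, 47.7 and 74.0 in the aged group and 69.4, 43.6 and 41.2 in the young group, with overlap. At the start of Ccnd2 they were 11.6, 46.3 and 75.3 in the aged group and 22.8, 0.804 and 30.4 in the young group, spread over most of the scale within the aged group. At the downstream start of Ccnd3 they were 9.77, 22.0 and 56.2 in the aged group and 52.8, 10.9 and 34.5 in the young group. None of the 3 start regions that could be ranked this way (0 of 3) was separated by age, and no test was run on these ranks. The start of Ccnd2 no longer overlapped without aged replicate 1, and that of Cdkn1b without young replicate 1. In the ranks given above, the remaining aged values of each lay above the remaining young ones. The strongest start region was chosen again under each setting. Without aged replicate 3 the Ccnd2 region counted was another within 1 kb of the same end (chr6:127150913-127151265). It did not overlap, whereas the values given above for the first region still overlap without that list. The start of Cdkn1c, which could be ranked without young replicate 2, did not overlap there. With a list left out this condition is weaker, and the share of all shared regions that meet it was not computed.

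**Figure D4:**
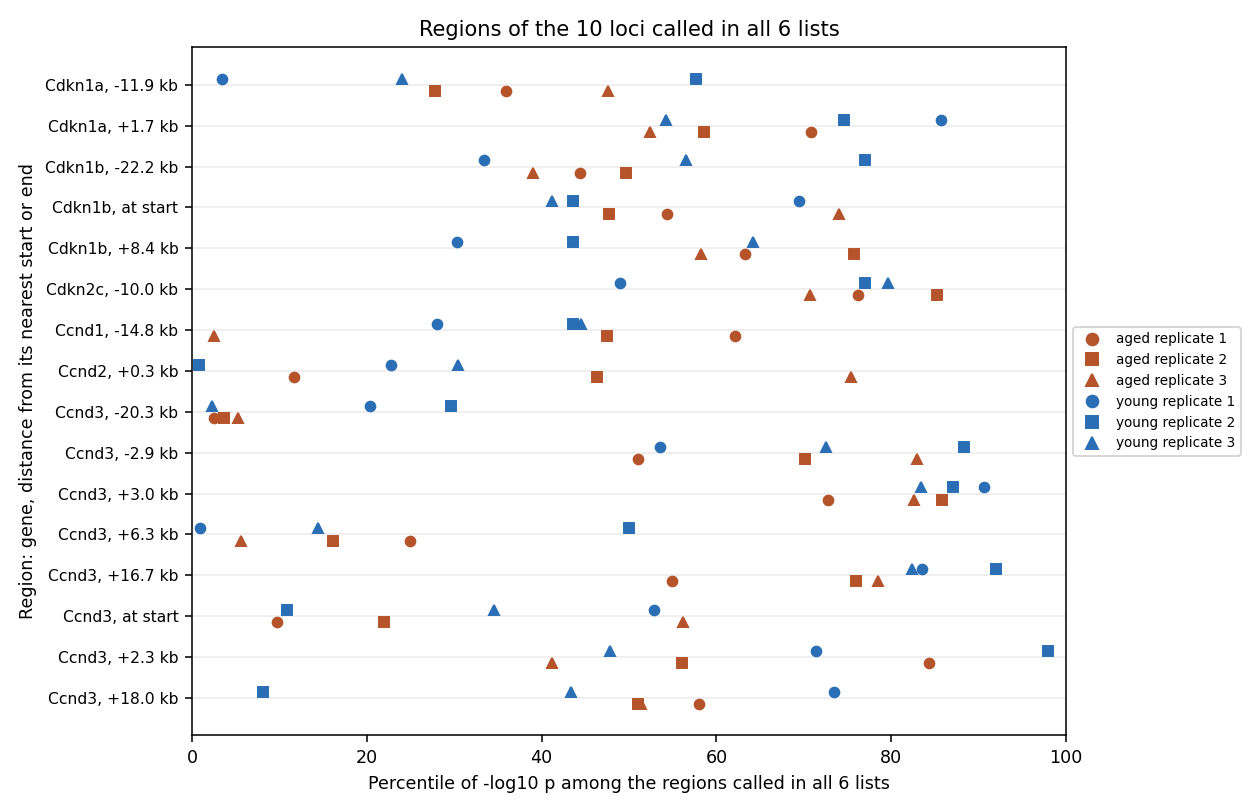
Percentile of the -log10 p among the 9582 regions called in all 6 lists, for the 16 such regions of the 10 loci, in aged (brown) and young (blue) lists; labels give the gene and the distance of the region from its nearest start or end. The Ccnd3 region 16727 bp after the upstream start is the one in which the aged and young points do not overlap.

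A list of 46 other genes of the same pathway, among them kinases, cyclins E, A and B, E2F factors, the retinoblastoma family and replication licensing factors, was read in the same way. For 28 of the 46 (60.9%) the start region had a peak in each of the 6 lists, against 31.4% of all genes. For 39 it had one in at least 5 lists, as did 46.6% of all genes. Cdk4, the kinase that shares the D-type cyclins with Cdk6, was among the 28, at percentiles of 98.4, 98.8 and 98.0 in the aged group and 98.3, 61.5 and 98.2 in the young group. E2f1, Ccna2, Ccne1, Rbl1, Rbl2, Skp2 and Wee1 were also called in all 6. Genes with the same calls as Cdkn1c and Cdkn2c, missing in young replicate 2 alone, included Ccnb1, Ccnb2, Ccne2 and Cdk8. Genes with the same calls as Cdkn2a and Cdkn2b were E2f6, Lin9, Mnat1 and Tfdp1. Likeness here means the same set of lists over 6 lists, and nothing more.

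By age, 0 of the 46 start regions were called in all lists of 1 age and none of the other. The locus share did not overlap between ages for Ccnb2, a mitotic cyclin, with means of 0.00471% in the aged group and 0.00283% in the young group (n = 3 each, exact permutation p 0.1, 1 after adjustment over all genes). The background for a higher share in aged lists was 3.36% of genes. The shared rank did not overlap for Cks2, a small partner of mitotic kinases, at 91.3, 90.5 and 86.9 in the aged group and 64.9, 84.0 and 80.9 in the young group, where 9.68% of all shared regions did not overlap in one direction or the other.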

How the data were processed

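Peak lists from ATAC-seq of long-term haematopoietic stem cells (3 aged, 3 young) were used as deposited, with groups and replicate numbers from the titles. Bowtie2, SAMtools, Picard, MACS2 and mm10 are named in the submitters' processing notes; their versions and parameters, and any shift of reads, are not stated there. In the lists the authors deposited, which have no header, each peak has a score (in 1163529 of 1163547 rows the whole part of 10 times the -log10 p, at most 1000), a -log10 p and -log10 q, a summit, and a fold enrichment (ratio over local background). Every peak had a p of at most 0.01, so weak peaks are included, and these values depend on an unknown depth.

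Rows with the same interval were joined to distinct peaks, and chromosomes 1 to 19 and X were used. Peaks sharing 1 bp were merged over lists. A list called a region if it had a peak in it. Percentiles are ranks of the highest -log10 p, with ties averaged. Genes and starts came from RefSeq tables on GRCm38.p6. Shares were compared by exact 2-sided permutation tests over the 20 splits of 6 lists, computed for every gene. Merging, calling and the counts per locus were tested on simulated peak lists, while the permutation test and the ranks were not (Python 3.11.15, pandas 2.3.3, numpy 2.4.6).

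The members, gene lists and tests were chosen with earlier results of these data known. Named were all 10 genes, their start regions, their strongest regions elsewhere, regions of 1 age, and pathway genes with the same calls as a member (up to 4 each); other regions called in at least 4 lists, and other pathway genes, were named after their values were seen. Markers of stem and mature cells were also read. Alternatives were limits on q, equal list lengths, a minimum cover, other windows, fold enrichment for rank, replicate pairs and leaving out lists. Same-numbered lists share an "exp" number in their titles, which the labels do not explain. Deviations of their locus shares from the group means correlated at 0.186, -0.162 and -0.0714 over 18332 genes. The highest value, 0.256, was for aged replicate 2 with young replicate 3. Shares also vary with list length, so these correlations cannot decide whether the lists are pairs. The main comparison left them unpaired.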

Additional observations from a re-analysis of the deposited data

How the results depend on the processing

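Of 75 alternative values, 49 stayed within 1.5 times the main count. With 6 lists there were 0 aged-only and 1 young-only regions, 16 regions and 3 start regions called in all lists, and no gene or start region separated by age (0 and 0). Limiting peaks to a -log10 q of at least 1.3 gave 0 young-only regions, 10 regions called in all lists and 1 start region (Cdkn1b), and the strongest 100000 peaks of each list gave the same 0, 10 and 1. A window of 10 kb gave 0 young-only regions. Leaving out 1 list at a time gave 0 to 7 aged-only regions, 1 to 5 young-only regions, and 16 to 25 regions and 3 to 5 start regions called in all lists. Over all regions these settings gave 0.0762% to 0.859% aged-only and 0.0745% to 1.23% young-only regions. There were 0 to 2 genes without overlap in locus share and 0 to 1 start regions without overlap in shared rank. Leaving out both aged replicate 3 and young replicate 2 was chosen after the data were seen. It gave 8 aged-only regions, a rule that 1.28% of all regions met, and 6 young-only regions, where 0.969% did. Every remaining list called 36 regions of these loci, where the share over all regions was 4.38%. Start regions had such calls for 7 genes, while the genome-wide share was 51.9%. The shared rank of 3 start regions did not overlap (Cdkn1c, Cdkn2b and Ccnd3). With 2 lists per age these conditions are weaker. How many of all shared regions lacked overlap under this setting was not computed, so the 3 cannot be read as a difference by age. Counting any region within 1 kb of a start, also chosen after the data were seen, gave 4 genes, with Cdkn1a added, as did a start window of 2 kb. The replicate block was a sign rule with no model fitted, and it asks for 1 sign in all 3 differences of same-numbered lists. It gave 0 genes and 0 start regions, and its smallest possible p is 0.25. Depth is unknown, so a missing call is no evidence of closed chromatin.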
